A study of Homo sapiens with 12 samples.

Results

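The replication-dependent histone genes were read by 79 of the 33297 probe sets of the Affymetrix Human Gene 1.0 ST array, an array that measures each gene with short probes spread along its exons. A probe set was counted as a member when its annotation listed, alone or among several symbols, a gene of the H1-1 to H1-6, H2AC, H2BC, H3C or H4C families, and 1 member, H3-4, was found only by its older name HIST3H3. Of the 79, 59 listed 1 symbol and 20 listed several, and 4 repeated the values of another member exactly, so that there were 75 distinct sets of values. The symbols include the pseudogenes H2BC19P and H2BC20P, which fit the rule by name. By class there were 6 probe sets of linker histone H1, 16 of H2A, 23 of H2B, 14 of H3 and 17 of H4, and 3 listed genes of 2 classes. Values given for a gene are those of its probe set with 1 symbol unless stated. Histone genes of a class have closely similar coding sequences and can share array probes, so the members are not independent measurements. The cells were Granta 519, an established mantle cell lymphoma line that expresses SOX11, and all 12 arrays came from this single line. On 4 arrays the cells had received SOX11 siRNA, on 4 a control siRNA and on 4 they were untreated. Each transfection used 4000000 cells and 100 pmol of siRNA, carried in by nucleofection, an electroporation method, and the RNA was taken 20 hours later. The study's methods speak of individual transfection experiments, but neither they nor the labels say whether the untreated cells were separate cultures or were electroporated without siRNA, so p-values measure the spread between these samples, and siRNA, electroporation and handling cannot be told apart in a comparison with untreated cells.

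Replication-dependent histone genes supply the core histones H2A, H2B, H3 and H4, around which DNA is wrapped, and the linker histones H1, which bind where the DNA enters and leaves the nucleosome. They lie in clusters, mostly lack introns, and are transcribed mainly in S phase, under the coactivator NPAT. Their transcripts carry no poly(A) tail and end in a stem-loop that is bound by SLBP and cut with the help of the U7 small nuclear ribonucleoprotein, and they are rapidly degraded when DNA synthesis stops. In lymphoma lines, which divide quickly, their RNA is usually plentiful. The labelling used here was a whole-transcript protocol, and non-polyadenylated RNA can be read by such a protocol when it is primed at random.

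SOX11, the targeted gene, was read at 188 to 229 after SOX11 siRNA, at 1026 to 1191 after control siRNA and at 978 to 1041 in untreated cells. The defining B cell markers were bright, MS4A1, the gene of CD20, at 4143 to 5071 over the 12 arrays, and CCND1, the cyclin D1 gene that is activated in mantle cell lymphoma, lay at 2928 to 3614, whereas CD5, a marker of many mantle cell lymphomas, stayed at 36.3 to 58.7. The summed signal of 5 T and NK cell genes was 252 to 357 with SOX11 siRNA, 288 to 337 with control siRNA and 268 to 371 in untreated cells. The median signal of all probe sets was 69.2 to 91.8 per array, and having 4 arrays in each group sets the precision. Signals are linear PLIER values, and fold changes are given as log2 of signal plus 16, which understates the change of dim probe sets. Differences were tested with limma over all 33297 probe sets, and a difference was called at an adjusted p under 0.05 by the method of Benjamini and Hochberg.

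Most histone probe sets read lower in cells that had received either siRNA than in untreated cells, and none differed detectably between SOX11 siRNA and control siRNA. With SOX11 siRNA, 20 members (18 distinct) fell and 0 rose against untreated cells, where 1.60% of the whole array fell and 0.805% rose. With control siRNA, 8 members (7 distinct) fell and 0 rose, against 0.216% lower and 0.171% higher on the whole array. The members had a median log2 fold change of -0.34 for SOX11 siRNA and -0.34 for control siRNA, each against untreated cells, where all probe sets had a median of -0.06 in both. As percentages these medians were -20.8% and -20.9%. Both comparisons used the same 4 untreated arrays, so they are not independent of each other. In RNA from a bulk culture, fewer cells in S phase and less histone RNA per cell cannot be told apart.

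Nearly all members lay on the same side. Against untreated cells, the log2 fold change was below 0 for 77 of the 79 members with SOX11 siRNA, against 64.7% of all probe sets, and for 78 with control siRNA, against 67.9% of all probe sets. At an unadjusted p under 0.05, 55 members were lower and 0 higher with SOX11 siRNA (10.2% and 4.70% of all probe sets), and 58 were lower and 0 higher with control siRNA (6.39% and 2.18%). The 4 SOX11 siRNA arrays all lay below the 4 untreated arrays for 35 members, against 5.54% of all probe sets. For control siRNA this held for 57 members, against 5.85% of all probe sets. The call count depended on single arrays. With SOX11 siRNA the 20 calls became 9 without SOX11 siRNA replicate 2 or 3, 12 without replicate 4, 11 without untreated replicate 2 and 6 without untreated replicate 1, 3 or 4. With control siRNA the 8 calls became 3 when control siRNA replicate 1 was omitted, and 2 when replicate 2, 3 or 4 of the control siRNA or replicate 1, 3 or 4 of the untreated cells was. The median stayed between -0.38 and -0.28 for SOX11 siRNA and between -0.38 and -0.30 for control siRNA when any 1 array was left out. The whole-array share called lower then lay between 0.736% and 1.94% with SOX11 siRNA and between 0.0871% and 0.426% with control siRNA.

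**Figure D1:**
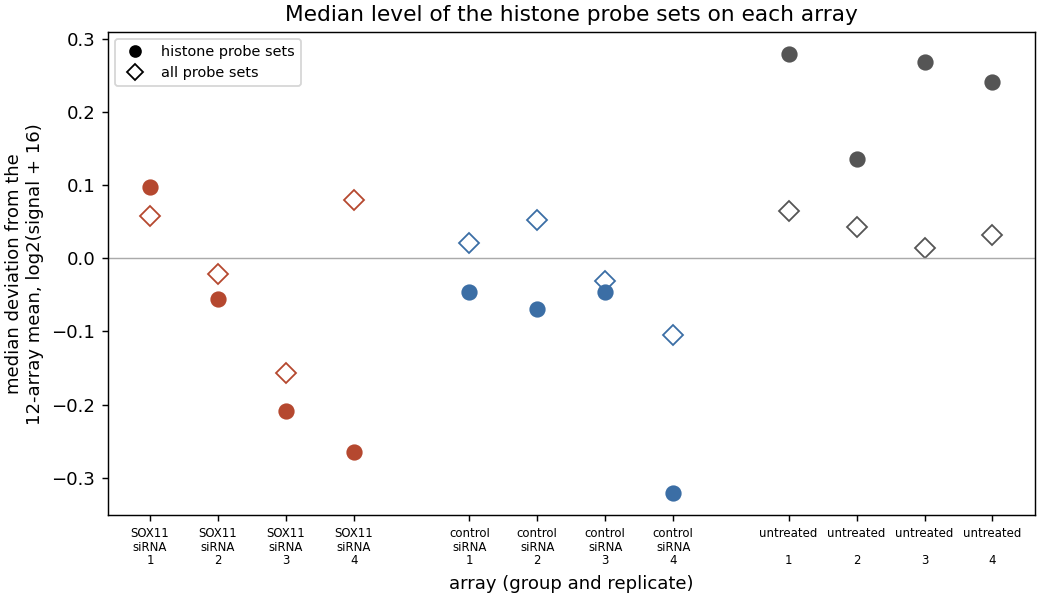
Median deviation of the 79 histone probe sets (filled circles) and of all 33297 probe sets (open diamonds) from each probe set's mean over the 12 arrays, on the log2(signal + 16) scale (vertical axis), for each array (horizontal axis). The 4 untreated arrays lie between 0.13 and 0.28 for the histone probe sets, above each of the 8 siRNA arrays.

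The shift could be followed array by array. Each probe set was set against its own mean over the 12 arrays, and the median of these deviations over the members was taken as the histone level of the array. This level was 0.10, -0.06, -0.21 and -0.27 on SOX11 siRNA replicates 1 to 4, -0.05, -0.07, -0.05 and -0.32 on control siRNA replicates 1 to 4, and 0.28, 0.13, 0.27 and 0.24 on untreated replicates 1 to 4. The untreated arrays were the highest 4 and did not overlap with either siRNA group, and the 2 siRNA groups overlapped widely. SOX11 siRNA replicate 1 came closest to the untreated arrays, and control siRNA replicate 4 was the lowest of all. The same measure over all probe sets was 0.06, -0.02, -0.16 and 0.08 with SOX11 siRNA, 0.02, 0.05, -0.03 and -0.11 with control siRNA, and 0.06, 0.04, 0.01 and 0.03 in untreated cells. SOX11 siRNA replicate 3 and control siRNA replicate 4, which had the lowest levels over all probe sets, were low in the histone probe sets too. SOX11 siRNA replicate 4 went the other way, with the highest level over all probe sets (0.08) and a low histone level (-0.27). When each array was centred on its median, the median log2 fold change of the members against untreated cells was -0.23 with SOX11 siRNA and -0.26 with control siRNA, where all probe sets had 0.04 and 0.02. Counted by probe set, 41, 60, 72 and 68 of the 79 members lay below the lowest untreated array on SOX11 siRNA replicates 1 to 4, and 70, 66, 66 and 75 did on control siRNA replicates 1 to 4. SOX11 siRNA replicate 1 had the fewest such members and control siRNA replicate 4 the most.

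**Figure D2:**
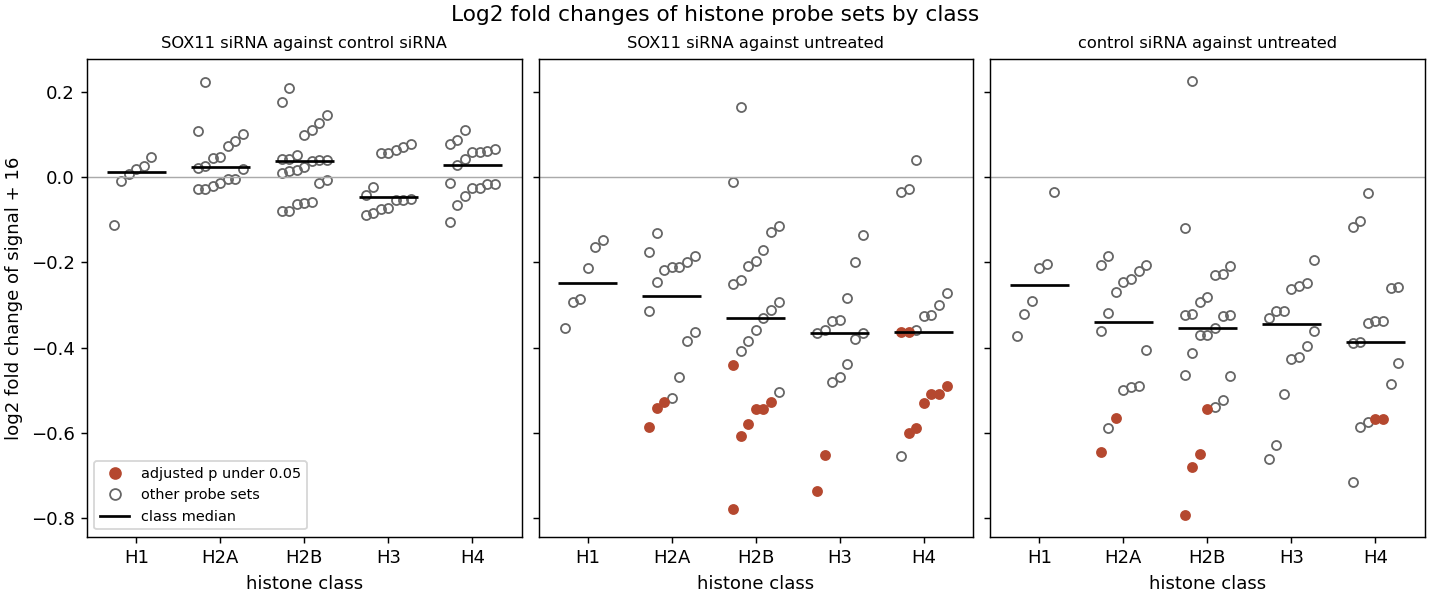
Log2 fold change of each histone probe set (vertical axis, on the log2(signal + 16) scale) by histone class (horizontal axis) in the 3 comparisons, with called probe sets filled and the class median as a bar. The medians of the 5 classes plotted lie between -0.39 and -0.25 in both comparisons with untreated cells and between -0.05 and 0.04 between the siRNA groups. The 3 probe sets that list genes of 2 classes are not plotted.

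The 6 linker histone probe sets, which read the H1 genes, had the class medians closest to 0, -0.25 with SOX11 siRNA and -0.25 with control siRNA against untreated cells, and none was called. H1-3 had the lowest p of the class in both comparisons. Its signals were 2347, 2594, 1924 and 2035 with SOX11 siRNA, 2180.2, 2381, 2178 and 1996 with control siRNA and 2793, 2699, 2943 and 2879 in untreated cells. Each of the 8 siRNA arrays was lower than each untreated array, yet the differences missed the threshold over all probe sets (log2 fold change -0.35, adjusted p = 0.0917 with SOX11 siRNA; -0.37, adjusted p = 0.172 with control siRNA). H1-2 was not called either, with log2 fold changes of -0.29 with SOX11 siRNA and -0.32 with control siRNA. H1-4, the brightest linker histone probe set, averaged 6084 ± 933 with SOX11 siRNA, 6100.0 ± 657 with control siRNA and 6997 ± 372 in untreated cells (SD, n = 4 each), and its differences from untreated cells, -0.21 and -0.20, were not called. H1-1 and H1-6, the testis-enriched H1t gene, were dim, with signals between 15.9 and 37.3 on all arrays, and neither had a called difference.

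Of the 16 H2A probe sets, 3 fell with SOX11 siRNA and 2 with control siRNA, and all 16 had a log2 fold change below 0 in both comparisons. H2AC11 was the H2A gene with the smallest p. It had signals of 1138, 978, 921 and 939 with SOX11 siRNA, 1017, 864, 1019 and 807 with control siRNA and 1468, 1347, 1542 and 1448 in untreated cells. The lowest untreated array stood above the highest siRNA array, so neither siRNA group overlapped with untreated cells. H2AC11 fell by 31.5% in linear mean with SOX11 siRNA (log2 fold change -0.54, SE 0.103, adjusted p = 0.0109) and by 36.1% with control siRNA (-0.64, SE 0.103, adjusted p = 0.00987). Its call was kept in all 22 alternatives for SOX11 siRNA and lost only with the analysis of variance for control siRNA (adjusted p = 0.0542).

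H2AC15 measured 1038, 949, 908 and 750.1 with SOX11 siRNA, 1047, 961, 903 and 783 with control siRNA and 1417, 1326, 1425 and 1302 in untreated cells. On this probe set, too, no siRNA array reached the lowest untreated array. The log2 fold change was -0.59 with SOX11 siRNA (SE 0.111, adjusted p = 0.0112) and -0.56 with control siRNA (SE 0.111, adjusted p = 0.0393). The second call was lost without control siRNA replicate 2, 3 or 4 or without any 1 of the untreated arrays (adjusted p up to 0.132). It was also lost after median centring, with log2(signal + 1) and with the analysis of variance. A probe set that lists H2AC15 together with H2BC15 measured 884, 972, 763 and 863 with SOX11 siRNA, 817, 884, 705 and 821 with control siRNA and 1042, 920.4, 944 and 1029.6 in untreated cells. There the SOX11 siRNA arrays overlapped with the untreated ones and the control siRNA arrays did not, and neither difference was called (-0.18 with SOX11 siRNA and -0.28 with control siRNA). The third H2A call was that of H2AC4 with SOX11 siRNA (-0.53, adjusted p = 0.0278), whose difference with control siRNA missed the threshold (-0.50, adjusted p = 0.0983). That call was lost without SOX11 siRNA replicate 2, 3 or 4 or any 1 of the untreated arrays (adjusted p up to 0.089). Median centring, log2(signal + 1) and the analysis of variance ended it too. That the H2AC4 response differs between the siRNAs is not shown by this, since the difference between them was -0.03 with a 95% interval of -0.28 to 0.22. H2AC1, a gene expressed mainly in testis, was among the dimmer H2A probe sets, at 179.7, 135, 131 and 113 with SOX11 siRNA, 150.2, 119, 116 and 85.0 with control siRNA and 189.6, 205, 173 and 162 in untreated cells. Its control siRNA arrays lay below all untreated arrays and its SOX11 siRNA arrays did not, and neither difference was called.

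The 23 H2B probe sets held 7 of the 20 calls with SOX11 siRNA and 4 of the 8 with control siRNA. H2BC14 had the smallest p of all members in both. Its signals were 2157, 2053, 1797 and 1845 with SOX11 siRNA, 1976, 1938, 1934 and 1763 with control siRNA and 3177, 2755, 2874 and 3186 in untreated cells. The 8 siRNA arrays formed a single narrow range, well separated from the untreated arrays. H2BC14 fell by 34.5% with SOX11 siRNA (log2 fold change -0.61, SE 0.0923, adjusted p = 0.00206) and by 36.5% with control siRNA (-0.65, SE 0.0923, adjusted p = 0.00467). It was called in all 22 alternatives in both comparisons.

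H2BC17 had the largest fold change of any member in both comparisons and was dim. It measured 131, 107, 94.9 and 76.4 with SOX11 siRNA, 114, 108, 115 and 68.7 with control siRNA and 175, 177, 210.4 and 175 in untreated cells. The siRNA arrays and the untreated arrays did not overlap, and replicate 4 was the lowest array in each siRNA group. The log2 fold change was -0.78 with SOX11 siRNA (SE 0.152, adjusted p = 0.0128) and -0.79 with control siRNA (SE 0.152, adjusted p = 0.0332). The second call was lost without any 1 of the 4 control siRNA or 4 untreated arrays (adjusted p up to 0.188 over all alternatives). Median centring, log2(signal + 1) and the analysis of variance ended it too. The call with SOX11 siRNA was lost with the analysis of variance alone (adjusted p = 0.0782).

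H2BC21 had 272, 314, 222 and 218 with SOX11 siRNA, 243, 203, 230.4 and 216 with control siRNA and 354, 298, 448 and 381 in untreated cells. Here the SOX11 siRNA arrays overlapped with the untreated ones and the control siRNA arrays did not. H2BC21 fell with control siRNA (-0.68, adjusted p = 0.0339) and missed the threshold with SOX11 siRNA (-0.50, adjusted p = 0.0579), while the siRNAs themselves differed by 0.18 with a 95% interval of -0.10 to 0.46. Its call was lost without any 1 of the control siRNA arrays or without untreated replicate 1, 3 or 4 (adjusted p up to 0.164 over all alternatives). It was also lost after median centring, with log2(signal + 1), with the analysis of variance and in both fits with a replicate block. Brighter probe sets that list H2BC21 among several symbols had smaller differences, and none was called. The one with H2BC18 and H2BP1 had -0.24 with SOX11 siRNA and -0.28 with control siRNA. The one with H2BC19P and H2BC20P had -0.31 with SOX11 siRNA and -0.32 with control siRNA.

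H2BC8 was called in both comparisons too (-0.53, adjusted p = 0.0202 with SOX11 siRNA; -0.54, adjusted p = 0.0496 with control siRNA), and without untreated replicate 1, 3 or 4 it was called in neither (adjusted p up to 0.077 and 0.17 over all alternatives). Both calls of H2BC8 were also lost after median centring, with log2(signal + 1) and with the analysis of variance. The other H2B genes that fell with SOX11 siRNA were H2BC11 (-0.54, adjusted p = 0.0137), H2BC6 (-0.54, adjusted p = 0.0213), H2BC13 (-0.58, adjusted p = 0.0289) and H2BC3 (-0.44, adjusted p = 0.0441). With control siRNA these had log2 fold changes of -0.47, -0.54, -0.52 and -0.46 and were not called. Of these, the call of H2BC11 was lost in 1 of 22 alternatives, without untreated replicate 1 (adjusted p = 0.0593), whereas those of H2BC6, H2BC13 and H2BC3 were lost in 4, 10 and 18, untreated replicate 1 or 3 being among the arrays whose omission ended each (adjusted p up to 0.0807, 0.11 and 0.143).

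**Figure D3:**
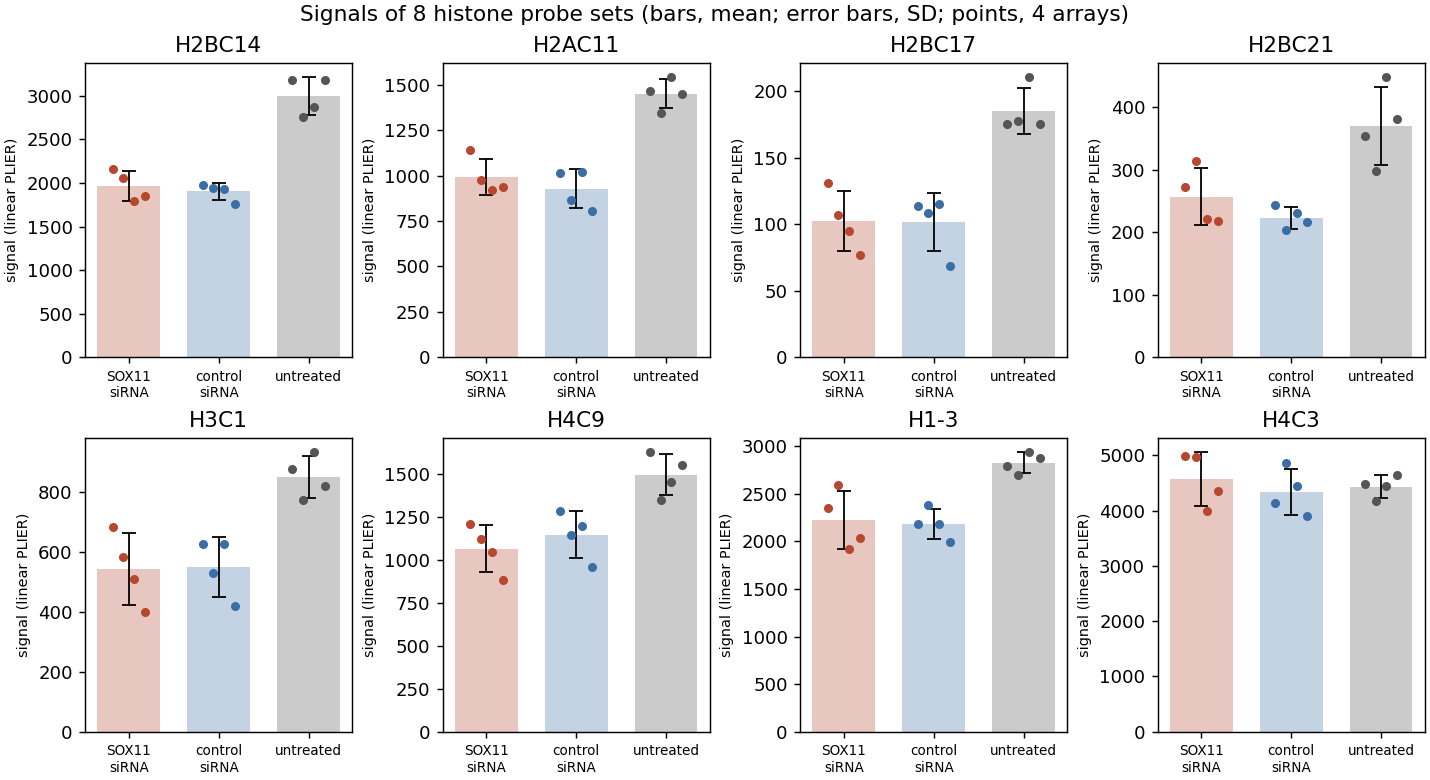
Linear signals (vertical axes) of 8 histone probe sets in SOX11 siRNA, control siRNA and untreated cells (horizontal axes), with each of the 4 arrays as a point, the mean as a bar and the SD as an error bar. For H2BC14, H2AC11, H2BC17, H3C1, H4C9 and H1-3 no siRNA array reaches the lowest untreated array, and for H4C3 the 3 groups overlap.

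The members differed in one respect that their selection did not use, the sequence before their start sites. RefSeq promoters of build GRCh38.p14, each holding 250 bases before and 50 after the first start listed, were found by symbol for 65 of the 73 histone symbols, of which 50 lie on chromosome 6, 14 on chromosome 1 and 1 on chromosome 12. On either strand, CCAAT was found in 84.6% of the 65 (35.7% of all 27305 promoters of this length), TATAAA in 66.2% (12% of all) and the octamer ATGCAAAT in 40% (1.8% of all). The core of the octamer that is 1 base shorter, TGCAAAT, lies within it and was found in 41.5% (4.23% of all). The octamer, the letters that POU2F factors such as POU2F1 and POU2F2 recognise in H2B promoters, was in 14 of 18 H2B and 11 of 16 H2A promoters, in 1 of 12 H3 promoters and in 0 of 6 H1 and 0 of 13 H4 promoters. CCAAT was in all H1, H2A, H2B and H3 promoters found and in 3 of 13 H4 promoters. Head-to-head H2A and H2B genes share most of these bases, so 1 octamer can be counted for both partners and the H2A and H2B shares are not independent. A match is a description of the letters and not of a bound site.

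The 250 bases before the start are shown for the H2A and H2B genes with the smallest p and for an H2B and an H4 gene with little difference, which were chosen after their values were seen. Capitals mark CCAAT, the TATA motif and the octamer or its core on either strand, so that some appear as their reverse complements, and motifs that overlap run together. Positions are GRCh38.p14, chr6:27814772-27815021 on the plus strand for H2BC14, chr6:27132793-27133042 on the plus strand for H2AC11, chr6:27146859-27147108 on the minus strand for H2BC12 and chr6:27873535-27873784 on the minus strand for H4C13.
H2BC14: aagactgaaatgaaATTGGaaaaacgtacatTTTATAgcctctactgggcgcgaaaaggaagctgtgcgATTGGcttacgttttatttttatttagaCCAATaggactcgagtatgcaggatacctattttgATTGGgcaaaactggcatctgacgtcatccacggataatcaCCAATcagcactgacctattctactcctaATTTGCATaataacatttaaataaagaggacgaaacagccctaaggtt
H2AC11: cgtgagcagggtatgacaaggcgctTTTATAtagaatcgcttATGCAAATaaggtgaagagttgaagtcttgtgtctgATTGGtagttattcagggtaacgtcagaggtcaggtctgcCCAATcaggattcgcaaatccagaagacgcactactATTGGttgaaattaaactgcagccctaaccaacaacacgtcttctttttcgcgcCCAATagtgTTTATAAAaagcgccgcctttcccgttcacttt
H2BC12: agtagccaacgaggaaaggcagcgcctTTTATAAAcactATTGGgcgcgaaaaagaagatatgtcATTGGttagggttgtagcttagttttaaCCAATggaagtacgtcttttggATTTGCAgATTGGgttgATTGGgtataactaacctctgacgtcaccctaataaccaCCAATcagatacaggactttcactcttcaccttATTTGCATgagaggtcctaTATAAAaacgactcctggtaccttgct
H4C13: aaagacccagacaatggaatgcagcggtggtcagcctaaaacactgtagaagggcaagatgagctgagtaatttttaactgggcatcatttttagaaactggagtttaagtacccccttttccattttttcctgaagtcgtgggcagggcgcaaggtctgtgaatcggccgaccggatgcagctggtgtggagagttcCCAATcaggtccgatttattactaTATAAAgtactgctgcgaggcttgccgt
H2BC14, H2AC11 and H2BC12 each hold the octamer, H2BC14 at 48 to 41 and H2BC12 at 46 to 39 bases before the start and H2AC11 farther out, at 208 to 201 bases, whereas H4C13 holds CCAAT and TATAAA alone. The start of H2BC11, the head-to-head partner of H2AC11, lies 248 bases from that of H2AC11, so this octamer of H2AC11 is nearer to H2BC11. The log2 fold changes of H2BC14 and H2BC12 were -0.61 and -0.01 with SOX11 siRNA and -0.65 and -0.12 with control siRNA. A brighter probe set that lists H2BC12 among 4 symbols had -0.29 with SOX11 siRNA and -0.23 with control siRNA. Whether the octamer goes with the size of the difference was not tested.

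Many H2A and H2B genes lie head to head and share the stretch between their starts. There were 11 such pairs among the members with starts 194 to 248 bases apart, and for 9 of them both genes had a probe set with 1 symbol. In each pair the promoters of both partners held the octamer or both lacked it. That follows from promoter windows that hold mostly the same bases and is no separate finding about the pairs. The H2B gene had the lower log2 fold change in 6 of the 9 pairs with SOX11 siRNA and in 5 with control siRNA. In the H2AC14 and H2BC14 pair, H2AC14 had log2 fold changes of -0.18 with SOX11 siRNA and -0.27 with control siRNA, neither of them called, beside the called falls of H2BC14. The pair of H2AC8 and H2BC8 was alike, with -0.20 and -0.18 for H2AC8. In the H2AC11 and H2BC11 pair the partners lay close together, at -0.54 and -0.54 with SOX11 siRNA, whereas with control siRNA H2AC11 was at -0.64 and called and H2BC11 at -0.47 and not. The differences between partners were not tested.

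Of the 14 H3 probe sets, 2 fell with SOX11 siRNA and 0 with control siRNA, although all 14 had a log2 fold change below 0 in both comparisons and 12 and 11 had an unadjusted p under 0.05. H3C12 had signals of 1115, 856, 808 and 578 with SOX11 siRNA, 969, 812, 1059 and 661 with control siRNA and 1544, 1338, 1409 and 1216 in untreated cells. Neither siRNA group overlapped with untreated cells, but the siRNA arrays were spread widely, with replicate 4 the lowest in each. The log2 fold change of H3C12 was -0.74 with SOX11 siRNA (SE 0.173, adjusted p = 0.0356) and -0.66 with control siRNA (SE 0.173, adjusted p = 0.146). H3C1 measured 684, 583, 509.9 and 399 with SOX11 siRNA, 626, 528, 627 and 419 with control siRNA and 877, 772, 934 and 819 in untreated cells. The groups were arranged as for H3C12, and H3C1 fell with SOX11 siRNA (-0.65, SE 0.154, adjusted p = 0.0356) and missed the threshold with control siRNA (-0.63, adjusted p = 0.111). Each of these 2 calls was lost when SOX11 siRNA replicate 2, 3 or 4, replicate 2 of the control siRNA or any 1 of the untreated arrays was omitted (adjusted p up to 0.132 for H3C1 and 0.144 for H3C12 over all alternatives). Both were also lost after median centring, with log2(signal + 1), in the fit of the 8 arrays compared and with the analysis of variance. H3C11, the brightest H3 probe set, averaged 5464 ± 544 with SOX11 siRNA, 5259 ± 579.6 with control siRNA and 5995 ± 381 in untreated cells (SD, n = 4 each), and its log2 fold changes of -0.14 and -0.19 were the smallest of the class. H3-4, a testis histone, was dim, at 80.7 ± 10.9 with SOX11 siRNA, 84.5 ± 14.5 with control siRNA and 109.8 ± 13.6 in untreated cells, and its log2 fold changes of -0.38 and -0.33 were not called.

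The 17 H4 probe sets held 8 calls with SOX11 siRNA and 2 with control siRNA, in each case with probe sets that repeat each other. H4C14 and H4C15, whose annotation is shared, were read by a pair of probe sets with identical values. These gave 602, 668, 589 and 703 with SOX11 siRNA, 558, 644, 611 and 642 with control siRNA and 819.7, 773, 1012 and 1095 in untreated cells. All siRNA arrays were lower than all untreated arrays, and the untreated arrays themselves were spread. The log2 fold change was -0.51 with SOX11 siRNA (SE 0.114, adjusted p = 0.0278) and -0.57 with control siRNA (SE 0.114, adjusted p = 0.0435). A second pair of identical probe sets, listed as H4C14 and H4C15, also fell with SOX11 siRNA, by less (-0.36, adjusted p = 0.0278). H4C9 had 1208, 1122, 1046 and 885 with SOX11 siRNA, 1283, 1143, 1197 and 959 with control siRNA and 1629.8, 1349, 1456 and 1553 in untreated cells. Its groups did not overlap with untreated cells either, and it fell with SOX11 siRNA (-0.49, SE 0.115, adjusted p = 0.0352). H4C2 (-0.53, adjusted p = 0.0277) and the 2 probe sets of H4C11 and H4C12 (-0.60 and -0.59) fell as well. With control siRNA the log2 fold changes were -0.39 for H4C9, -0.49 for H4C2 and -0.58 and -0.57 for H4C11 and H4C12. The second pair listed as H4C14 and H4C15 had -0.34 there, and none of these was called. The H4 calls depended on single arrays. Among other arrays, omission of untreated replicate 3 ended that of H4C9, of H4C11 and H4C12 and of each H4C14 and H4C15 probe set with SOX11 siRNA, omission of untreated replicate 1, 2 or 4 ended that of H4C2, and omission of SOX11 siRNA replicate 1 or 2, of any 1 of the control siRNA arrays or of untreated replicate 1, 3 or 4 ended those with control siRNA (adjusted p up to 0.155).

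Some H4 genes differed little from untreated cells. H4C3, the brightest H4 probe set, had 4987, 4975, 3992 and 4352 with SOX11 siRNA, 4129, 4861, 4441 and 3904 with control siRNA and 4488, 4165, 4442 and 4648 in untreated cells. The 3 groups overlapped throughout, and the log2 fold changes were 0.04 with SOX11 siRNA (95% interval -0.17 to 0.25) and -0.04 with control siRNA (-0.25 to 0.18). H4C13, singled out after its values were seen, gave -0.04 with SOX11 siRNA (-0.25 to 0.18) and -0.10 with control siRNA (-0.32 to 0.11). Among H2B genes, H2BC12, singled out in the same way, had -0.01 with SOX11 siRNA (-0.23 to 0.21) and -0.12 with control siRNA (-0.34 to 0.10). A second probe set that lists H2BC12, among 4 symbols with H2BC12L, H2BC17 and H2BC5, is the brightest of the H2B class and had -0.29 with SOX11 siRNA (-0.54 to -0.05) and -0.23 with control siRNA (-0.47 to 0.02), neither called. These intervals allow falls of some size, and the difference between such members and the called ones was not tested. The only probe set above untreated cells on all 4 control siRNA arrays lists H2BC18 with the pseudogene FCGR1BP, was dim, at 35.5, 38.7, 30.4 and 35.9 with control siRNA and 27.8, 27.9, 25.4 and 29.5 in untreated cells, and was not called (0.23, adjusted p = 0.586).

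**Figure D4:**
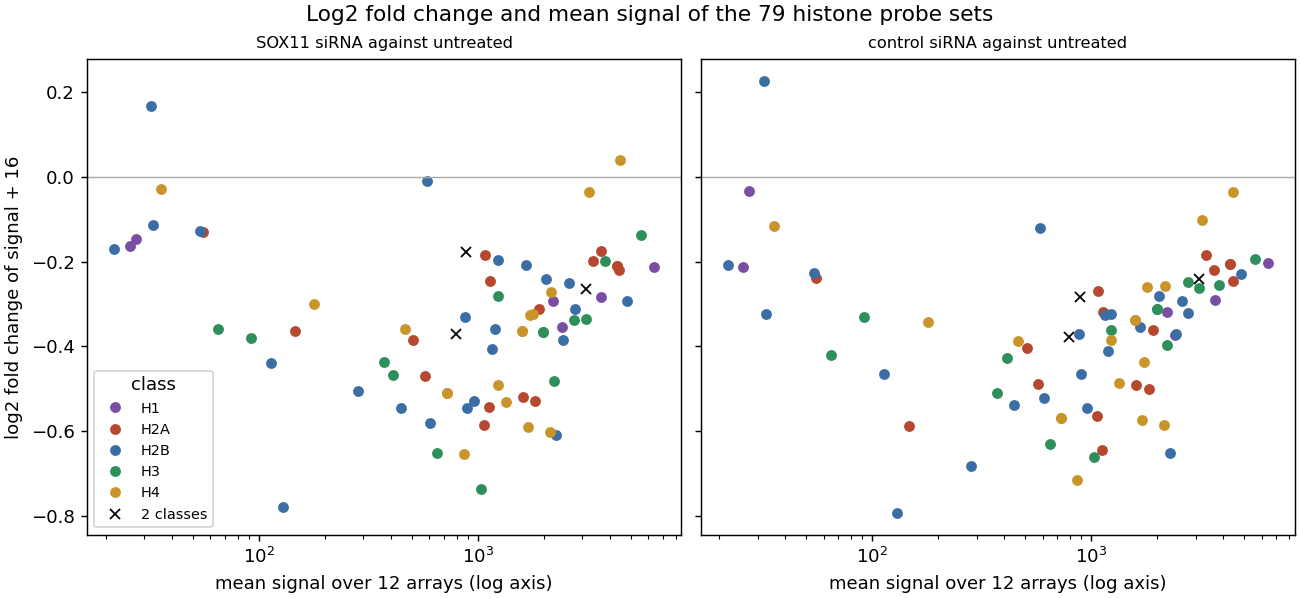
Log2 fold change against untreated cells (vertical axis, on the log2(signal + 16) scale) and mean signal over the 12 arrays (horizontal axis, log scale) for the 79 histone probe sets, coloured by class, for SOX11 siRNA (left) and control siRNA (right). Members between 100 and 1000 lie lowest, with medians of -0.47 and -0.50, and those over 3000 lie nearer to 0, at -0.21 in both.

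The size of the difference went with how bright a probe set was. The 22 members with a mean signal of 100 to 1000 had a median log2 fold change of -0.47 with SOX11 siRNA and -0.50 with control siRNA, against -0.03 and -0.04 for the 12019 probe sets of that range. The 33 members of 1000 to 3000 had -0.36 and -0.36, against 0.02 and -0.02 for all such probe sets. The 14 members over 3000 had -0.21 and -0.21, against 0.06 and -0.00. None of the members over 3000 was called, whereas 11 of those at 1000 to 3000 and 9 of those at 100 to 1000 fell with SOX11 siRNA, and 3 and 5 did with control siRNA. Calls over 3000 were rare on the whole array too. Of all probe sets, 1 of 951 over 3000, 30 of 2437 at 1000 to 3000 and 291 of 12019 at 100 to 1000 fell with SOX11 siRNA. With control siRNA 0, 8 and 38 did. Over the 69 members above 100, Spearman's rho between mean signal and log2 fold change was 0.52 with SOX11 siRNA and 0.68 with control siRNA, which describes probe sets that share arrays and probes and is no test. The 10 members under 100 had medians of -0.14 and -0.22 on a scale that damps dim signals. Whether bright probe sets were compressed was not tested.

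Between SOX11 siRNA and control siRNA no difference of a histone probe set was called. Of the 79 members 0 were called in either direction by limma, against 0.183% of all probe sets, 0 had an unadjusted p under 0.05, against 4.26%, and for 0 members did the groups of arrays fail to overlap, against 1.96%. None was called in any of the 24 alternatives. The median log2 fold change was 0.02, with 33 members below 0, and single members ranged between -0.11, for H1-6, and 0.22, for H2AC1. The 95% interval of the difference lay within a fold of 1.5 in both directions for all 79 members on the scale used, and its extremes were -0.44, for H3C12, and 0.54, for H2AC1. Differences within these limits may have gone unseen. For H2BC14, the member with the smallest p against untreated cells, SOX11 siRNA and control siRNA differed by 0.04 with an interval of -0.15 to 0.24. The sign of the median depended on scaling, being -0.02 after quantile normalization and 0.04 after centring each array on its median.

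**Figure D5:**
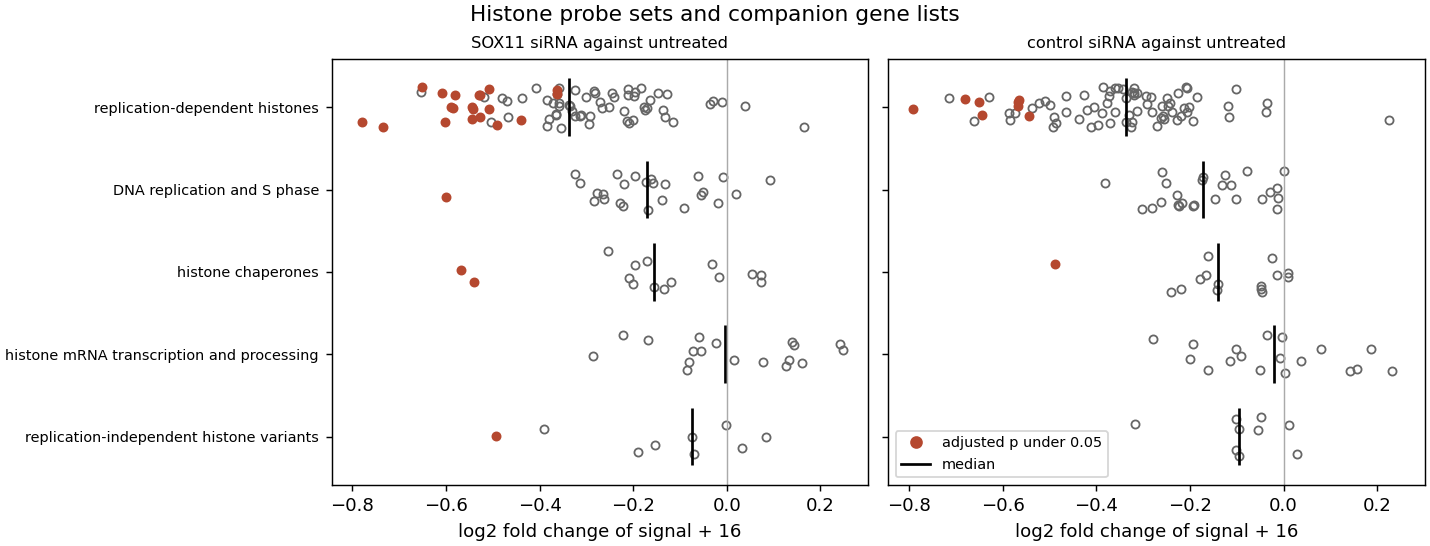
Log2 fold change against untreated cells (horizontal axis, on the log2(signal + 16) scale) of the histone probe sets and of the genes of 4 companion lists (vertical axis), for SOX11 siRNA (left) and control siRNA (right), with called probe sets filled and medians as vertical lines. The histone median of -0.34 lies below the medians of the 4 lists in both comparisons.

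The companion lists held genes that work with these histones. DNA replication and S phase was represented by 26 of 26 listed genes, such as those of the MCM helicase. Of these, 1 fell with SOX11 siRNA and 0 with control siRNA against untreated cells, 0 rose, and 24 and 25 had a log2 fold change below 0, with medians of -0.17 and -0.17. Of all probe sets, 1.60% and 0.216% fell, 0.805% and 0.171% rose, and 64.7% and 67.9% lay below 0. At an unadjusted p under 0.05 by limma, 10 of the 26 were lower with SOX11 siRNA and 9 with control siRNA, against 10.2% and 6.39% of all probe sets. The siRNA arrays all lay below the untreated arrays for 9 and 10 genes, against 5.54% and 5.85%. The counts of calls moved with scaling, with 10 called lower with SOX11 siRNA and 3 with control siRNA after quantile normalization. Of all probe sets 3.34% and 0.877% were called lower in that setting. After median centring the medians were -0.07 with SOX11 siRNA and -0.09 with control siRNA. CDC45, which completes the helicase at the fork, had 527, 395, 409 and 367 with SOX11 siRNA, 567, 499, 535 and 387 with control siRNA and 699, 606, 667 and 616 in untreated cells. Both siRNA groups stayed below the untreated arrays and overlapped with each other. CDC45 fell with SOX11 siRNA (-0.60, SE 0.128, adjusted p = 0.0208) and missed the threshold with control siRNA (-0.38, adjusted p = 0.345). Its call was lost in 5 of 22 alternatives, namely log2(signal + 1), the analysis of variance and the omission of SOX11 siRNA replicate 2 or untreated replicate 1 or 3 (adjusted p up to 0.0816). MCM4, a subunit of the MCM helicase, had log2 fold changes of -0.14 with SOX11 siRNA and -0.28 with control siRNA. MCM6, another subunit, had -0.28 with SOX11 siRNA and -0.26 with control siRNA, and none of these was called.

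Histone chaperones were represented by 15 of 15 listed genes, of which 2 fell with SOX11 siRNA and 1 with control siRNA, with medians of -0.15 and -0.14. At an unadjusted p under 0.05 by limma, 5 were lower with SOX11 siRNA and 1 with control siRNA, against 10.2% and 6.39% of all probe sets. For 4 genes in each comparison the siRNA arrays all lay below the untreated arrays, against 5.54% and 5.85% of all probe sets. After quantile normalization 5 were called lower with SOX11 siRNA and 1 with control siRNA, and after median centring 1 and 0 were, with medians of -0.05 and -0.06. Of all probe sets, 3.34% and 0.877% were called lower after quantile normalization, and 1.15% and 0.168% after median centring. CHAF1B, a subunit of the chromatin assembly factor that places new H3 and H4 behind the fork, had 366, 353, 322 and 341 with SOX11 siRNA, 382, 367, 377 and 337 with control siRNA and 508, 503, 542 and 523 in untreated cells. The siRNA arrays were well below the untreated ones. It fell in both comparisons (-0.57, adjusted p = 0.00134 with SOX11 siRNA; -0.49, adjusted p = 0.0128 with control siRNA), and the call with control siRNA was lost after median centring and without control siRNA replicate 4 or untreated replicate 3 or 4 (adjusted p up to 0.0611). NASP, which holds a reserve of H3 and H4, had 1304, 1023, 1061 and 926 with SOX11 siRNA, 1336, 1462, 1469.5 and 1128 with control siRNA and 1619, 1476, 1629.6 and 1533 in untreated cells. Both siRNA groups stayed below the untreated arrays and overlapped at their edges, and NASP fell with SOX11 siRNA (-0.54, adjusted p = 0.0199) and missed the threshold with control siRNA (-0.22, adjusted p = 0.652). The call of NASP was lost after median centring, with log2(signal + 1), with the analysis of variance, and without SOX11 siRNA replicate 2 or untreated replicate 1, 3 or 4 (adjusted p up to 0.069), and the difference of NASP between the siRNAs was -0.32 with an adjusted p = 0.824.

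The genes that transcribe and process histone mRNA had medians near 0. Of 18 of 20 listed genes that were measured, 0 were called in either comparison, and the medians were -0.00 with SOX11 siRNA and -0.02 with control siRNA, turning above 0 after quantile normalization (0.02 and 0.00) and after median centring (0.10 and 0.06). At an unadjusted p under 0.05 by limma, 2 were lower and 2 higher with SOX11 siRNA, against 10.2% and 4.70% of all probe sets. With control siRNA 1 was lower and 0 higher, against 6.39% and 2.18%. The siRNA arrays all lay below the untreated arrays for 1 and 2 genes, against 5.54% and 5.85%. With SOX11 siRNA 1 gene was called lower after quantile normalization and 1 higher after median centring. Of all 33297 probe sets, 3.34% fell in the first setting and 938 rose in the second. SLBP, the stem-loop binding protein, had 1027, 926, 800.0 and 1156 with SOX11 siRNA, 830.2, 981, 827 and 901 with control siRNA and 903, 896, 1007 and 1031 in untreated cells. NPAT had 708, 741, 581 and 780.4 with SOX11 siRNA, 668, 794, 697 and 682 with control siRNA and 713, 700.2, 751 and 741 in untreated cells. For both genes the 3 groups overlapped, with log2 fold changes of 0.02 and -0.12 for SLBP and of -0.05 and -0.03 for NPAT. LSM10, a protein of the U7 particle, had -0.09 with SOX11 siRNA and -0.28 with control siRNA. POU2AF1, the B cell coactivator of the octamer factors, had -0.29 with SOX11 siRNA and -0.20 with control siRNA, and none of these was called. CASP8AP2 lay at 195 to 267 with SOX11 siRNA, 214 to 256 with control siRNA and 258 to 289 in untreated cells. In the same order ZNF473 lay at 169 to 248, 202 to 239 and 169 to 206. CSTF2 lay at 413 to 511, 463 to 561 and 506 to 558, and TUT7 at 420 to 593, 453 to 515 and 444 to 465.

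Of the replication-independent histone variants, which are made outside S phase as well, 9 of 12 listed genes were measured, with medians of -0.07 with SOX11 siRNA and -0.09 with control siRNA, the first turning to 0.03 after median centring. With SOX11 siRNA 2 variants were called lower after quantile normalization and 0 after median centring, against 3.34% and 1.15% of all probe sets. MACROH2A2 had 161, 145, 137 and 146 with SOX11 siRNA, 189, 222, 222 and 168 with control siRNA and 195, 195, 238 and 231 in untreated cells. Its SOX11 siRNA arrays were the lowest 4, and its control siRNA arrays overlapped with untreated cells. It was the 1 gene of the list that fell with SOX11 siRNA (-0.49, adjusted p = 0.0221), a call lost after median centring, with the analysis of variance, and without SOX11 siRNA replicate 2 or untreated replicate 3 or 4 (adjusted p up to 0.078), and its difference between the siRNAs was not called (-0.40, adjusted p = 0.32). H1-10 had 257 to 344 with SOX11 siRNA, 300 to 353 with control siRNA and 367 to 474.5 in untreated cells. Its siRNA arrays all lay below the untreated arrays, and neither difference was called. For 2 of the 9 variants with SOX11 siRNA and 1 with control siRNA the siRNA arrays all lay below the untreated ones. Of all probe sets this held for 5.54% and 5.85%. H2AX, which marks broken DNA when phosphorylated, had log2 fold changes of 0.08 with SOX11 siRNA and 0.01 with control siRNA, and H2AZ1, which replaces H2A at many promoters, had -0.07 and -0.10. Between SOX11 siRNA and control siRNA 0 of the 68 genes measured over the 4 lists were called by limma, and 3 of them (4.41%), MACROH2A2, NASP and ASF1A, had an unadjusted p under 0.05, a share close to the 4.26% of all probe sets.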

How the data were processed

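RNA was hybridised to Affymetrix Human Gene 1.0 ST arrays. The authors deposited linear PLIER intensity values per probe set and array, background-corrected by GC content of the probes and scaled to a global median in Affymetrix Expression Console 1.1. The genome build and annotation release are not given in the sources used here. The 6 deposited columns of the authors' own comparisons were not used. Here log2(intensity + 16) of all 33297 probe sets was fitted with limma 3.58.1 (R 4.3.3), the 3 groups of 4 arrays in 1 fit, with empirical Bayes moderation and Benjamini-Hochberg adjustment over all probe sets, and the code was tested on simulated data. Members and lists were chosen with earlier results of these data known. The naming rule took up to 15 called members with the smallest p per comparison, the 2 with the smallest p and the brightest and dimmest of each class, and up to 3 genes per list and comparison. Some genes that the rule takes are not described, among them H2AC21, H2AC25, H2BC1, H4C7, MACROH2A1, GINS3, CDK2 and ASF1B. H2BC3, H4C11 with H4C12, H2AC8, H2AC14, H2BC12, H4C13, H2BC15 with H2AC15, H2BC18 with FCGR1BP, the probe sets that list H2BC21 among several symbols, H3-4, SLBP, NPAT and H2AX were added after their values were seen. Alternatives were quantile normalization, median centring, log2(intensity + 1), removal of dim probe sets, a fit of the 8 arrays compared, one-way analysis of variance, a trended robust prior, a replicate block alone and with quantile normalization, array weights, omission of each array, members with 1 symbol and, added after seeing the data, identical probe sets counted once. The study's methods name a one-way analysis of variance on values normalized by RMA, whereas here it was run on the PLIER values. Promoter sequences were those of RefSeq, build GRCh38.p14.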

Additional observations from a re-analysis of the deposited data

Results flagged for a closer look

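Each of 37 named histone probe sets and the array-level histone median were examined in each group of 4 arrays, 114 groups in all, for a single array whose gap to the others took up most of the group's range, by Dixon's 95% limit. Chance alone gives this in about 1 of 20 groups, and 8 were found. Control siRNA replicate 4 was the lone low array in 6 of them. For the array-level histone median of the control siRNA arrays the gap was 0.913 of the range. H4C2 measured 975 on that array against 1249 to 1293 on the other control siRNA arrays (0.878), H1-4 measured 5122 against 6319 to 6524 (0.868), and H2BC17 measured 68.7 against 108 to 115 (0.879). H2AC4 was at 1326 there against 1670.2 to 1747 (0.837), and H3C3 at 261 against 331 to 347 (0.836). Among untreated arrays, H2BC17 was high on replicate 3, at 210.4 against 175 to 177 (0.935), and H3C8 was low on replicate 2, at 1254 against 1471 to 1505 (0.875). Without control siRNA replicate 4, the median log2 fold change of the members against untreated cells was -0.30 with control siRNA, against -0.34 with it, and 2 members were called in place of 8. Of all probe sets 0.0871% were called lower without this array and 0.216% with it.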

How the results depend on the processing

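The direction held throughout: over all alternatives run, the median log2 fold change of the members against untreated cells stayed below 0, nearest to it after median centring (-0.23 with SOX11 siRNA, -0.26 with control siRNA), and no called member changed sign. The number of calls did not hold. Against untreated cells, the 20 calls with SOX11 siRNA became 48 after quantile normalization, 7 after median centring, 7 with log2(intensity + 1), 32 without dim probe sets, 9 in a fit of the 8 arrays compared and 6 with one-way analysis of variance, and lay between 6 and 28 when 1 array was left out. The whole-array shares called lower were, in the same order, 3.34%, 1.15%, 0.943%, 3.82% (of the probe sets kept), 0.946% and 0.868%, against 1.60% in the main fit. With 1 array left out they lay between 0.736% and 1.94%. The 8 calls with control siRNA became 29, 3, 2 and 22 under the same first 4 settings, 3 with one-way analysis of variance and 23 with array weights, and lay between 2 and 8 when 1 array was left out. The whole-array shares called lower were 0.877%, 0.168%, 0.0871%, 0.955%, 0.0511% and 0.997%, against 0.216% in the main fit. With 1 array left out they lay between 0.0871% and 0.426%. Between the siRNA groups the count was 0 in every alternative, and its median lay between -0.05 and 0.07. Replicate numbers are shared between groups, and same-numbered arrays deviated together only weakly (r between -0.25 and 0.29). In no comparison did all same-numbered arrays reach the correlation set beforehand for treating the numbers as pairs. The labels do not say whether same-numbered arrays came from the same experiment, and these correlations cannot settle it. A fit with the replicate block gave 19 calls with SOX11 siRNA and 11 with control siRNA. A replicate block combined with quantile normalization gave 52 and 29. With the replicate block 2 histone variants, in place of 1, were called lower with SOX11 siRNA. Over all probe sets the split between lower and higher calls moved with scaling. It was 532 and 268 with SOX11 siRNA and 72 and 57 with control siRNA, and 383 and 938, and 56 and 126, after median centring. The cause was not tested. With 4 arrays per group, and 10 members under a signal of 100, small differences of dim members could not be seen.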
